A study of Homo sapiens with 2 samples.

Results

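Ribosomal protein genes encode the proteins of the cytoplasmic ribosome. They were taken as all genes whose symbol on the array is RPL or RPS followed by a number, with or without the endings A, X or L, or is RPLP0, RPLP1, RPLP2 or RPSA. This rule uses symbols alone and no measured value. It found 161 probes of 78 genes (48 of the large subunit and 30 of the small subunit) among 58199 probes and 34757 symbols. RPL10 and RPSA had no probe under these symbols and were not analysed here. The cells were A375, a line established from a human malignant melanoma. One culture was transfected with siRNA against THOC2 (si-THOC2), a subunit of the THO complex, which couples transcription to the export of mRNA from the nucleus, and the other with the control siRNA (NC). Once in the cell, an siRNA guides the cutting of mRNAs that match its sequence. The labels put the harvest at 48 h, and RNA of each culture was hybridized to 1 array of 60-base probes (1-colour Agilent SurePrint G3, probes placed on hg19). The methods list 4 THOC2 siRNAs, and which of them was used for the array is not given in the sources used here.

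There was 1 array per condition, so no test could be made, no spread between cultures is known, and each difference below is between these 2 arrays. The title and the description of each sample name one condition and its source field the other. Titles and descriptions were followed. Both THOC2 probes had lower signal on the array so labelled si-THOC2 (136 with NC and 40.9 with si-THOC2, and 67.3 and 35.1), with log2 fold changes of -1.42 and -0.63. Of 10 markers of the melanocyte lineage 7 were detected by both arrays (well above background), among them SOX10 and MITF, while PMEL, MLANA and TYR were not. Signals of these 7 on the NC array ran from 18 to 20400. Of the markers of other cell types, 1 of 4 for keratinocytes, 1 of 4 for fibroblasts, 3 of 4 for leukocytes and 1 of 3 for endothelium were detected as well, with signals on the NC array between 16.2 and 83.9.

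A ribosome has a small subunit, which holds the mRNA and reads its codons, and a large subunit, which joins the amino acids. Each ribosomal protein is needed in about equal number, and growing cells devote much of their mRNA to these genes. Their mRNAs usually begin with a terminal oligopyrimidine (TOP) tract, a C at the cap followed by an unbroken run of C and U, through which LARP1 and the mTOR pathway adjust their translation together. Many of the genes carry small nucleolar RNAs in their introns, and mutations in some of them cause Diamond-Blackfan anaemia.

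The TOP tract is the sequence feature that these genes share, so the start sites of members described below are shown first. Each line gives the last 10 bases before the annotated start and the first 20 of the transcript on the gene's strand, from RefSeq on GRCh38.p14. Capitals mark the run of pyrimidines that begins with C at the first transcribed base, and RPL10L, a copy of RPL10 that arose by retroposition, is shown as a start without one.
RPS27: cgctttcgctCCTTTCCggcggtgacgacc
RPL38: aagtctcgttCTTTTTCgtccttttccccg
RPL26: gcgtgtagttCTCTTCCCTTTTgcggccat
RPS12: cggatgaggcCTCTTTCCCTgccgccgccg
RPS24: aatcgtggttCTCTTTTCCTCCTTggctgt
RPL36A: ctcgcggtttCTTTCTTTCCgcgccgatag
RPL39: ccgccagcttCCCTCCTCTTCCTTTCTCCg
RPL10L: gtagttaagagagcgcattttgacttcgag

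The windows lie at chr1:153990752-153990781 (RPS27, plus strand), chr17:74203668-74203697 (RPL38, plus), chr17:8383174-8383203 (RPL26, minus), chr6:132814559-132814588 (RPS12, plus), chr10:78033853-78033882 (RPS24, plus), chrX:101391001-101391030 (RPL36A, plus), chrX:119791611-119791640 (RPL39, minus) and chr14:46651762-46651791 (RPL10L, minus). The RefSeq promoter table held 61 of the 78 genes, with 74 starts. A C at the start followed by at least 4 pyrimidines, read on the gene's strand only, stood at 44 of these starts (59.5%), against 1429 of all 35116 starts in the table (4.07%). Counted by gene, 44 of the 61 members (72.1%) had such a start, against 5.14% of 27305 genes. The longest run was the 19 bases of RPL39. RPS27 and RPL38, the members with the lowest values, and RPS24 and RPS12, those with the highest, all had a run.

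Nearly all ribosomal protein mRNAs gave strong signals on both arrays. One RPS27 probe was left out because the scanner software marked its spot as uneven on the si-THOC2 array. Of the other 160 probes, 157 were detected by both arrays, and 3 (among them 1 each of RPL28 and RPS24) were below background on both. Each of the 78 genes had at least 1 probe to compare. The processed signal (intensity after subtraction of the background) of the 157 probes ran from 29.4 through a median of 90158 to 272690 with NC, and from 23.2 through 82480 to 265980 with si-THOC2. Over all 25345 compared probes, those well above background on at least 1 array, the medians were 150 and 121. No spot was saturated.

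No ribosomal protein probe differed by 2-fold between NC and si-THOC2. From the log2 of each processed signal the 75th percentile of the array was subtracted, and this percentile was 0.31 lower on the si-THOC2 array, so that the log2 fold change is si-THOC2 minus NC on this scale. None of the 157 probes was lower by 2-fold or more, against 3.33% of all compared probes, and none was higher, against 2.93%. At 1.5-fold 1 member probe was lower (0.637%, against 7.69% of all probes), and 2 were higher (1.27%, against 6.14%). The lower probe belonged to RPL7, and the higher ones to RPS2 and RPL37. The log2 fold changes of the 157 probes had an SD of 0.19, and 86.6% lay within 0.25 of their median of 0.16, against 59.8% of all compared probes within 0.25 of theirs. Probes as bright as these varied less than dim ones in general. Of 643 other probes with a mean log2 signal of 14 to 20, where 131 member probes lay, only 1 (0.156%) passed 2-fold, and the SDs were 0.18 for members and 0.19 for the others.

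**Figure D1:**
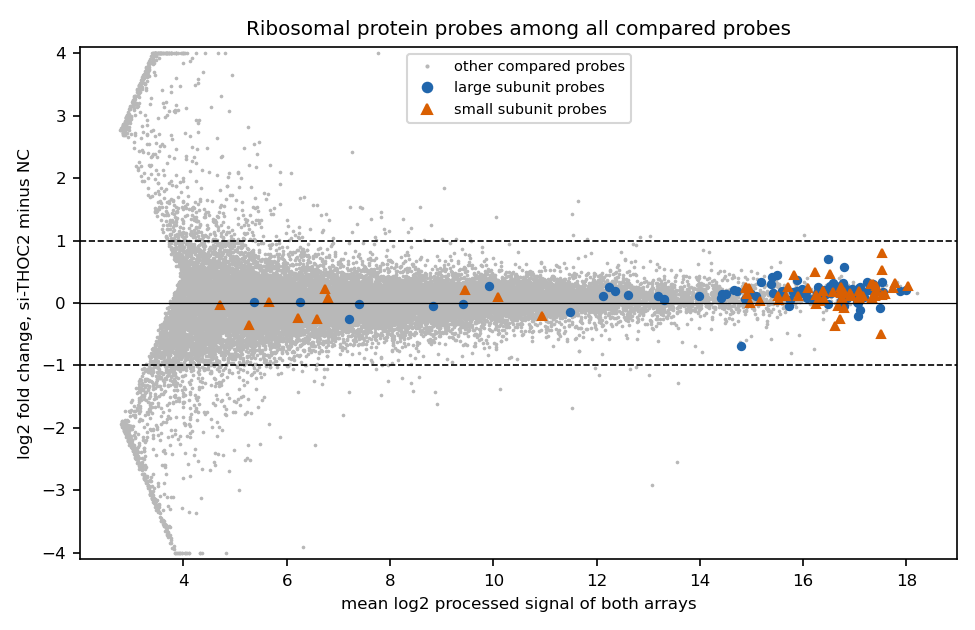
Log2 fold change (si-THOC2 minus NC, after scaling on the 75th percentile) against the mean log2 processed signal of both arrays, 1 symbol per probe. Grey points are other compared probes, with values of a size over 4 drawn at 4, circles large subunit probes and triangles small subunit probes. The dashed lines mark 2-fold, and all 157 ribosomal protein probes lie between them, most at the bright end.

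Gene values, the mean of a gene's compared probes, lay slightly above those of most genes under this scaling. The median over the 78 genes was 0.17 on the log2 scale (1.13-fold), with an SD of 0.15 and a range from -0.37 to 0.50, and 67 genes lay above 0 and 11 below. Over all 17514 compared genes the median was 0.02 with an SD of 0.64, and 53.4% lay above 0. The member median came to 0.17 also with scaling on the median of detected probes, but to 0.04 with lowess centring, 0.07 with normexp background correction and 0.01 with quantile normalization or in the authors' own normalized values. With no detection filter it was 0.16, below the median of all genes of 0.24. Before any scaling, 141 of the 157 probes had lower signal with si-THOC2, and the median signal of all 25345 compared probes was lower too (150 and 121). The share of all compared probes with lower signal was not counted, so the 141 are not a result about these genes. The size of the member median thus depended on how the arrays were scaled.

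Over the range of log2 signals from 14 to 20, the median log2 fold change was 0.17 for 131 member probes and 0.11 for 643 others. Among probes with a mean log2 signal of 17 to 20, 43 members had a median log2 fold change of 0.20 and 27 others 0.21. Between 16 and 17 the medians were both 0.16 (53 members and 99 others), and between 15 and 16 they were 0.17 and 0.09 (22 and 186). Between 14 and 15 they were 0.14 and 0.09 (13 and 331). Between 8 and 12 they were -0.01 for 7 members and 0.05 for 7842 others. The medians of members and of other probes were thus both higher in the brighter bands, alike above 16 and higher in members between 14 and 16. The part of signal strength in the difference between members and all genes was not tested.

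**Figure D2:**
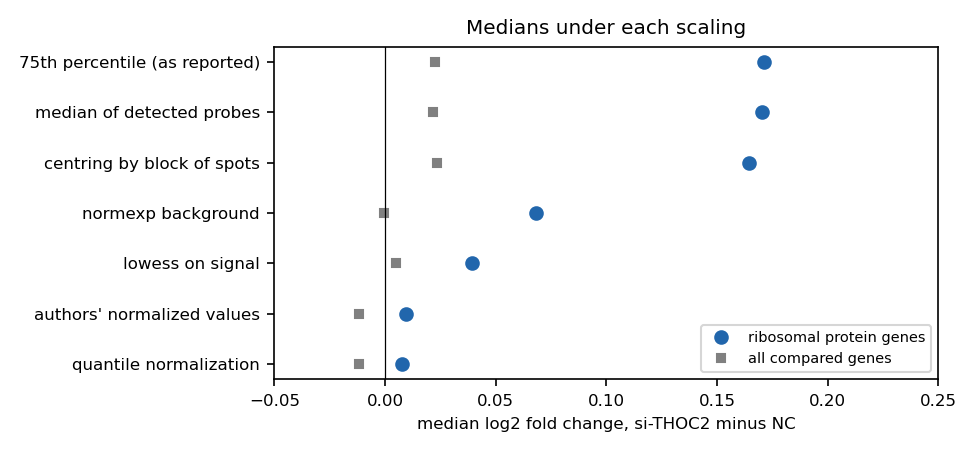
Median log2 fold change (si-THOC2 minus NC) of the 78 ribosomal protein genes (circles) and of all compared genes (squares) under 7 ways of scaling, 1 per line. The ribosomal protein median moves from 0.17 in the values as reported to 0.01 with quantile normalization, while the median of all genes moves from 0.02 to -0.01.

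Large and small subunit genes had the same median under this scaling. The 48 large subunit genes had a median log2 fold change of 0.17 (SD 0.12, range -0.20 to 0.38), with 43 above 0 and 5 below. The 30 small subunit genes had a median of 0.17 as well (SD 0.18, range -0.37 to 0.50), with 24 above 0 and 6 below, although quantile normalization took it to -0.01 and the large subunit to 0.02. Both the lowest and the highest gene were of the small subunit. Genes with a TOP run at a start had a median of 0.18 (44 genes, SD 0.15) and the 17 with a listed start and no run 0.10 (SD 0.13). The 23 measured genes that host small nucleolar RNAs were at 0.17 and the 55 others at 0.18. The 20 genes of the Diamond-Blackfan anaemia list were at 0.13 and the 58 others at 0.18. None of these differences was tested.

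**Figure D3:**
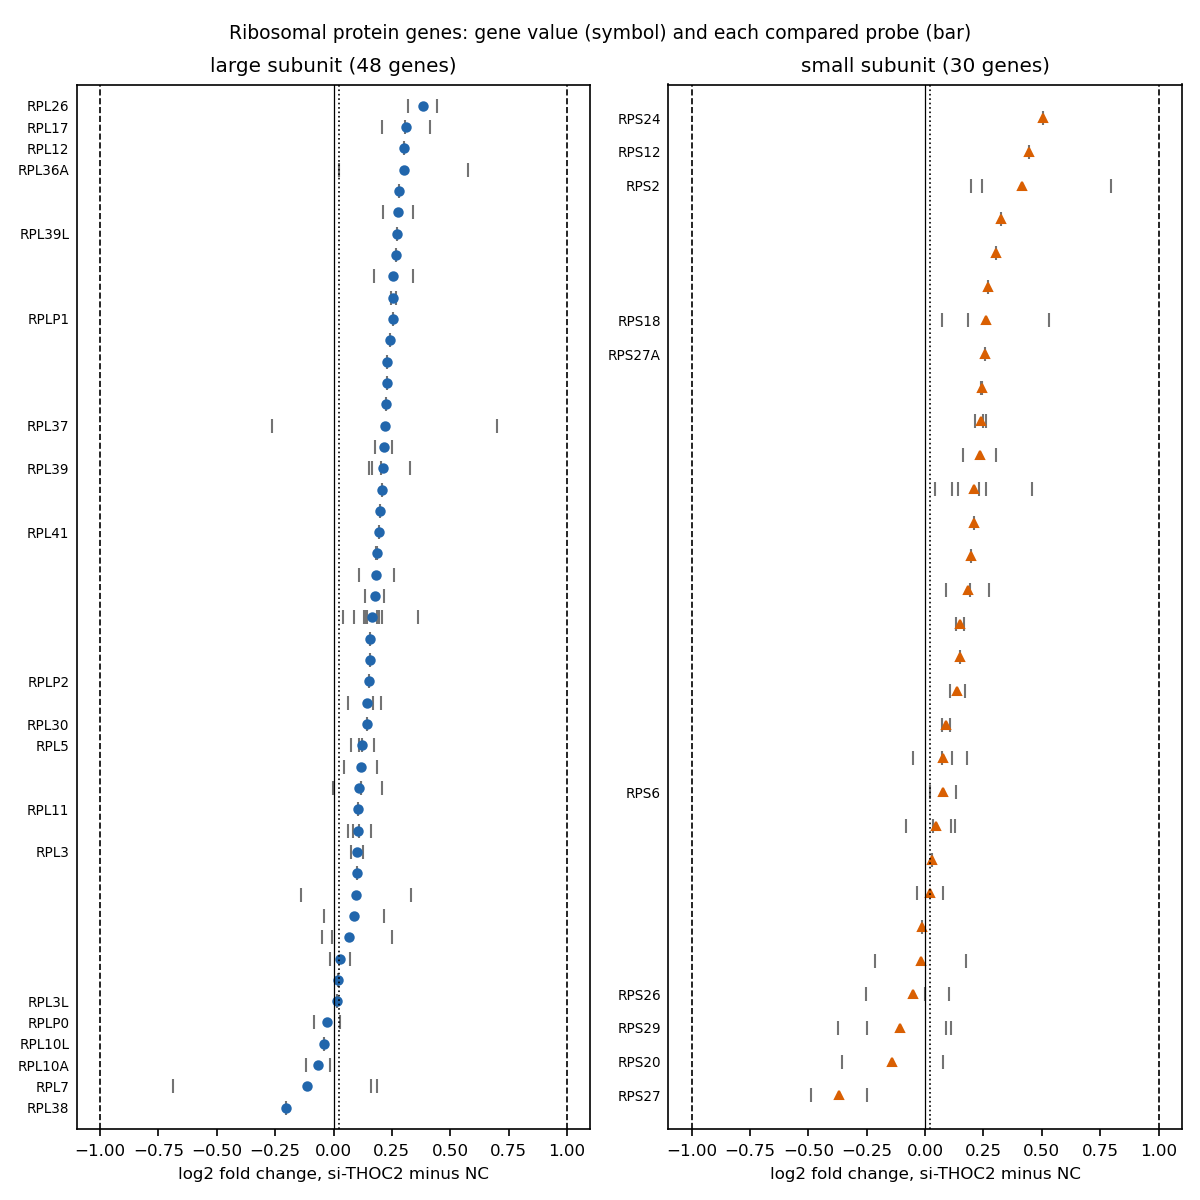
Gene value (symbol) and each compared probe (bar) as log2 fold change, si-THOC2 minus NC, for the 48 large subunit genes on the left and the 30 small subunit genes on the right. The dotted line is the median of all compared genes (0.02) and the dashed lines are 2-fold. Gene values run from RPS27 at -0.37 to RPS24 at 0.50, and the probes of RPL37, RPL7, RPS2 and RPL36A spread widest. Labels mark the members whose values the text gives.

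The error within an array depended on the signal. Probes printed on several spots give it. For each, the variances of the log2 signal over spots on the 2 arrays were added, and the root was taken as the technical SD of the log2 fold change. Its median over probes was 0.046 (largest 0.129) for 20 probes with a log2 signal of at least 14 and 0.061 for 230 between 8 and 14. It was 0.13 for 31 between 6 and 8 and 0.33 for 6 between 4 and 6. The probe of RPL30, a large subunit protein, had 8 usable spots with log2 fold changes between 0.11 and 0.20. The SD of these log2 fold changes was 0.028, and the technical SD of this probe was 0.034. The spread of the 131 bright member probes (SD 0.18 at a log2 signal of 14 to 20) was over this error, while that of the 11 dim ones (SD 0.18 at 4 to 8) lay within the range of 0.13 to 0.33 for probes that dim. Differences between cultures, labelling and hybridization are not part of these SDs.

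RPS27, a zinc finger protein of the small subunit, had the lowest gene value at -0.37. Its bright probe (hg19, chr1:153964053-153964112) read 245000 with NC and 141000 with si-THOC2, and its log2 fold change was -0.49. A dim probe upstream (chr1:153963726-153963785) went from 89.7 to 61.0, at -0.25. The third probe, left out for its uneven spot (chr1:153964560-153964619), had 68686 and 31314, at -0.82. All 3 were thus lower with si-THOC2, and RPS27 kept its sign in each setting tried. The bright probe lay at row 333 in the last column of spots, and centring the values by block of spots left its log2 fold change at -0.40.

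RPL38, known for its part in the translation of Hox mRNAs in the embryo, came next at -0.20, from 1 probe whose signal was 163000 with NC and 114000 with si-THOC2 (chr17:72205433-72205986, spanning an intron). RPL10A, a protein of the L1 stalk where spent tRNAs leave, was at -0.07, and its probes had log2 fold changes of -0.12 (164000 and 122000) and -0.01 (102000 and 81600). The probe of RPL10L, whose protein replaces RPL10 in male germ cells, read 61400 and 48200, at -0.04. RPL10L is nearly identical to RPL10 in sequence, and the share of RPL10 mRNA in this signal was not tested. The RPL10L probe lay at row 134 and column 14, and centring by block of spots took it to -0.17. Quantile normalization made each of these 3 gene values more negative.

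For the remaining members among the lowest 8, the sign differed between probes. RPS29, a zinc finger protein of the small subunit, had a gene value of -0.11 from 4 probes. A pair annotated across the same splice junction read 128000 with NC and 79700 with si-THOC2, at -0.37, and 130000 and 88400, at -0.25. The others, a probe across the next junction (chr14:50050358-50052691) and one of another transcript variant, were at 0.11 (157000 and 136000) and 0.09 (1180 and 1020). RPS20 of the small subunit was at -0.14 as the mean of a dim probe at -0.36 (48.6 and 30.6) and a bright one at 0.08 (178000 and 151000). At the signal of this dim probe repeated spots had an SD of 0.33. RPS26, which lines the channel where mRNA leaves, was at -0.05 with a dim probe at -0.25 (117 and 78.8) and bright ones at 0.00 and 0.10. By its brightest probe alone, each of RPS20, RPS26, RPS29 and RPL7 was above 0.

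RPL7, a large subunit protein, held the lowest member probe. That probe, across a splice junction, read 39900 with NC and 20000 with si-THOC2, at -0.69. The others read 67900 and 61100, at 0.16, and 5470 and 5020, at 0.19. The first alone was lower after scaling, and its spot lay in row 4 near the edge of the array, where 60 bright probes around it had a median of 0.08. The gene value of RPL7 was -0.11.

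At the other end, RPS24, a small subunit protein mutated in some families with Diamond-Blackfan anaemia, had the highest gene value at 0.50, from 1 probe that read 72100 with NC and 82500 with si-THOC2 (chr10:79795371-79795430). RPS12, another small subunit protein, was at 0.44 (55300 and 60700, chr6:133138639-133138698). RPL26, a large subunit protein near the exit of the peptide tunnel, was at 0.38, and its probes read 112000 and 113000, at 0.32, and 43900 and 48200, at 0.44. These signals were higher with si-THOC2 even before scaling, and all 3 genes stayed above 0.2 with quantile normalization (0.35, 0.35 and 0.26).

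RPS2, which lies at the entry of the mRNA channel, was at 0.41. Its probes read 88300 and 81700 (0.20), 223000 and 213000 (0.24), and 160000 and 224000 (0.80). The last, at chr16:2012081-2012137, was the highest of all member probes and set the gene value apart from the others. RPL17, at the exit of the tunnel for the new peptide, was at 0.31, with probes at 0.21, 0.30 and 0.41. RPL12, at the base of the stalk, had 1 probe, at 0.30 (169000 and 168000, chr9:130209982-130210191, spanning an intron). Equal signals on both arrays thus appear as a value of about 0.3 after scaling, and quantile normalization placed RPL12 at 0.08.

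Probes of 1 gene mostly gave like values. For the 45 members with at least 2 compared probes, the median gap between the lowest and the highest probe was 0.15, against 0.24 in 4227 other genes. With probes of log2 signal of at least 12 only, it was 0.13 in 36 members and 0.083 in 130 others, so there the gap was wider in members. Numbers of probes per gene were not matched, and the part of brightness in these gaps was not tested. The annotation placed 2 member probes (of RPL13A and RPL21) on another chromosome than the other probes of their gene. They were averaged into the gene values, and what they read was not tested. In 4 of the 45 the gap was over 0.5, and in none over 1. RPL37, a zinc finger protein of the large subunit, had the widest at 0.96, between a dim probe toward the 3′ end at -0.26 (179 and 120) and a bright junction probe at 0.70 (80400 and 105000). RPL7 followed at 0.87, RPS2 at 0.60 and RPL36A at 0.56.

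The RPL36A sequence is shown because its probes share most of it and still differ. RPL36A is a large subunit protein encoded on the X chromosome. Its probes are placed at chrX:100650422-100650750 and chrX:100650439-100650768 of hg19, each across an intron, and have 40 of their 60 bases in common. The shared stretch, read along the transcript, is given in capitals.
RPL36A shared: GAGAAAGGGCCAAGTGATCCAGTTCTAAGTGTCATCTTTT

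The first of them read 148000 with NC and 121000 with si-THOC2, at 0.02. The second read 104000 and 125000, at 0.58. Among 12 pairs of member probes in 9 genes that share at least 20 bases, this difference of 0.56 was the largest, the next was 0.23, and the median was 0.12. The median of 0.12 for these pairs, whose other bases can differ, was itself over the SD of repeated spots of like brightness. The first RPL36A probe lay at row 166 in the last column and the second at row 180 and column 30. Centring by block of spots brought them closer, to 0.15 and 0.42. The part of their place in the difference was not tested.

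The highest member probes lay close together on the array. A patch of spots from row 120 to 190 and from column 15 to 40, chosen after the values were seen, held 8 member probes (5.1% of them) with a median of 0.48, against 0.15 for those outside. It held 5 of the 8 highest member probes (among them those of RPS2, RPL37, RPL36A and RPS24) and 0 of the 8 lowest. The highest outside it was a probe of RPS18 at 0.53. Other probes with a mean log2 signal of at least 8 showed the same to a lesser degree, since 281 inside had a median of 0.15, with 7.12% higher by 1.5-fold, and 9588 outside had 0.06, with 0.897%. With each block of spots centred on its own median, the probe of RPS2 was at 0.64, that of RPL37 at 0.51, that of RPL36A at 0.42 and that of RPS24 at 0.34. Leaving out the patch took RPS2 to 0.22, left RPS24 with no probe, and gave a median over the members of 0.15. The part of the place on the array in these values was not tested.

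**Figure D4:**
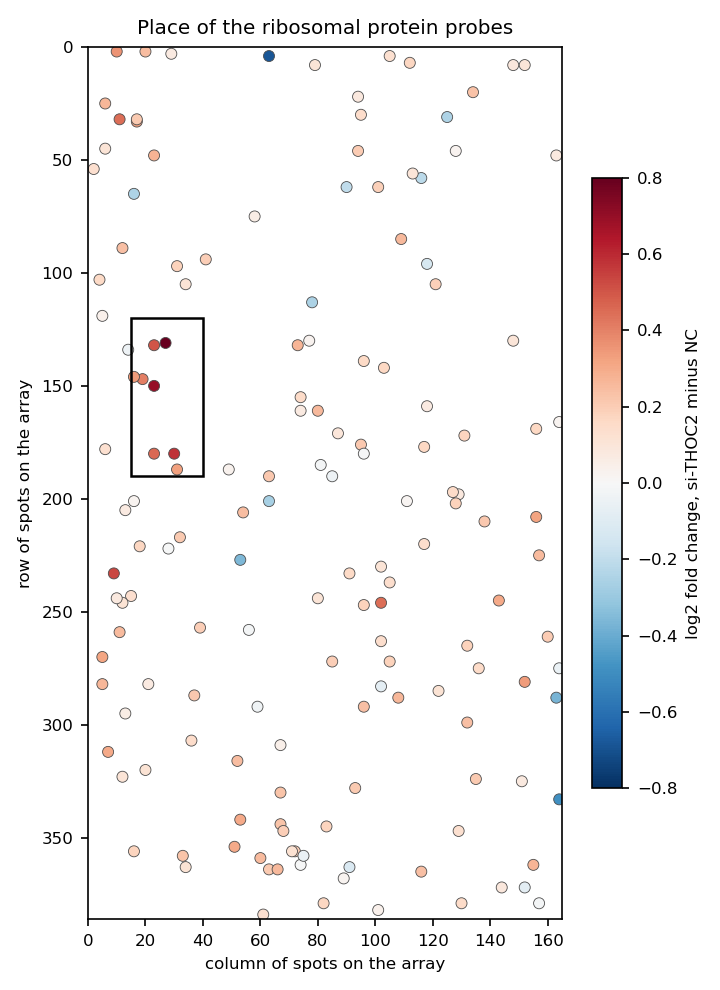
Place of the 157 compared ribosomal protein probes on the array, by row and column of spots, coloured by log2 fold change (si-THOC2 minus NC, blue lower, red higher). The box marks rows 120 to 190 and columns 15 to 40, where 8 probes have a median of 0.48, and the probe of RPL7 at -0.69 lies at the top in row 4.

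Members with known separate roles ran from -0.03 to 0.25. RPL5 and RPL11, which with the 5S rRNA hold back MDM2 when ribosome assembly fails, were at 0.12 (4 probes between 0.08 and 0.17) and 0.11 (157000 and 137000). RPS6, the substrate of the S6 kinases, was at 0.08, its bright probe at 0.13 (199000 and 176000). RPS27A, made as a fusion with ubiquitin, was at 0.25 (54800 and 52800), and RPL41, the smallest ribosomal protein, at 0.19 (249000 and 230000). The stalk proteins that bring in elongation factors spread more, with RPLP0 at -0.03 from probes at -0.08 and 0.03, RPLP1 at 0.25 (173000 and 167000) and RPLP2 at 0.15 (93500 and 83800). With quantile normalization RPL11, RPL41 and RPS6 had values below 0 (-0.04, -0.07 and -0.02). The same setting took RPLP0 to -0.24 and RPLP2 to 0.00.

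Tissue-restricted copies are given beside the genes they derive from. RPL3, at the centre of peptide bond formation, was at 0.10, with probes at 0.07 (129000 and 109000) and 0.13 (135000 and 118000), but its gene value was below 0 with quantile normalization (-0.07), in the authors' values (-0.07), with lowess (-0.04) and with normexp (-0.04). Its copy in striated muscle, RPL3L, was at 0.01 (45.6 and 37.1), a signal at which repeated spots had an SD of 0.33. RPL39, in the wall of the exit tunnel, was at 0.21, with probes at 0.15, 0.16, 0.21 and 0.33. Its testis copy RPL39L was at 0.27 (973 and 948). None of the 3 copies the rule takes in passed 1.5-fold, nor did any other member by its gene value.

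Copies and ribosomal proteins whose symbols the rule does not match were in the same range. RPL22L1 was at 0.29 (100000 and 98700), RPL36AL at 0.18 (51300 and 46900), RPL26L1 at 0.04 (8380 and 6980), RPS27L at -0.19 (10200 and 7250) and RPL7L1 at -0.20 (1010 and 710). RPS27L, the copy of RPS27, and RPS27 were thus both below 0. FAU, which encodes a small subunit protein fused to a ubiquitin-like protein, was at 0.23 (89900 and 85400). RACK1, a signalling scaffold on the small subunit listed as GNB2L1, was at 0.06 (68600 and 57800).

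Other gene groups of the translation apparatus held no gene value past 2-fold, against 3.34% of all 17514 gene values lower and 2.96% higher by 2-fold or more. Such shares depended on signal. Of non-member probes with a mean log2 signal of 4 to 8, 3.76% passed 2-fold in either direction. Between 8 and 12 the share was 0.293%, and between 12 and 14 it was 0.65%. The median log2 signal of each of these groups was above 8. The other TOP mRNAs, which encode translation factors and partners, had 22 measured genes with a median log2 fold change of 0.14 (19 above 0, 3 below), which was 0.02 with quantile normalization. Lowest were EIF3A (-0.22), PFDN5 (-0.06) and EIF3H (-0.02), and highest EIF2S3 (0.43, dim at 28.4 and 30.8), EIF3F (0.42) and EEF2 (0.37), the factor that moves the ribosome along the mRNA. The 77 mitochondrial ribosomal proteins had a median of 0.03 (45 above 0, 32 below), which was -0.05 with quantile normalization. MRPL35 (-0.27), MRPL36 (-0.23) and MRPL9 (-0.20, from probes at -0.51 and 0.10) were lowest, and MRPS34 (0.55), MRPL38 (0.33) and MRPS27 (0.32) highest.

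The 44 measured ribosome biogenesis genes had a median of 0.10 (31 above 0, 13 below) and spread more widely, from -0.77 to 0.98, although normexp background correction took the median to -0.01. SDAD1, which acts in large subunit maturation, was lowest (208 and 98.2), followed by NOP58 (-0.39), a core protein of box C/D small nucleolar particles, and the kinase RIOK2 (-0.29, from probes at -0.60 and 0.03). RRP12 was highest with probes at 0.26 and 1.70, followed by NOLC1 (0.43) and NOP14 (0.42). SDAD1, lower, and RRP12, higher, were the only genes of these lists past 1.5-fold, against 7.19% of all gene values lower and 6.03% higher. All 5 chaperones that guard single ribosomal proteins were measured, with a median of 0.02, BCCIP at -0.16, GRWD1 at 0.02, RPS19BP1 at 0.02, HEATR3 at 0.13 and TSR2, which carries RPS26, at 0.23. The 10 regulators of TOP mRNAs had a median of 0.03, with LARP4 (-0.25), RPS6KB1 (-0.07, from 3 probes between -0.31 and 0.10) and CNBP (-0.05, from probes at -0.18 and 0.07) lowest and LARP1 (0.24), RPTOR (0.23) and MTOR (0.15) highest. The median log2 signal was 16.62 in the large subunit list, 16.23 in the small, 14.13 in the other TOP mRNAs, 11.33 in the mitochondrial list and 10.74 in the biogenesis list, so the 3 lists with the highest medians were also the brightest of these.

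**Figure D5:**
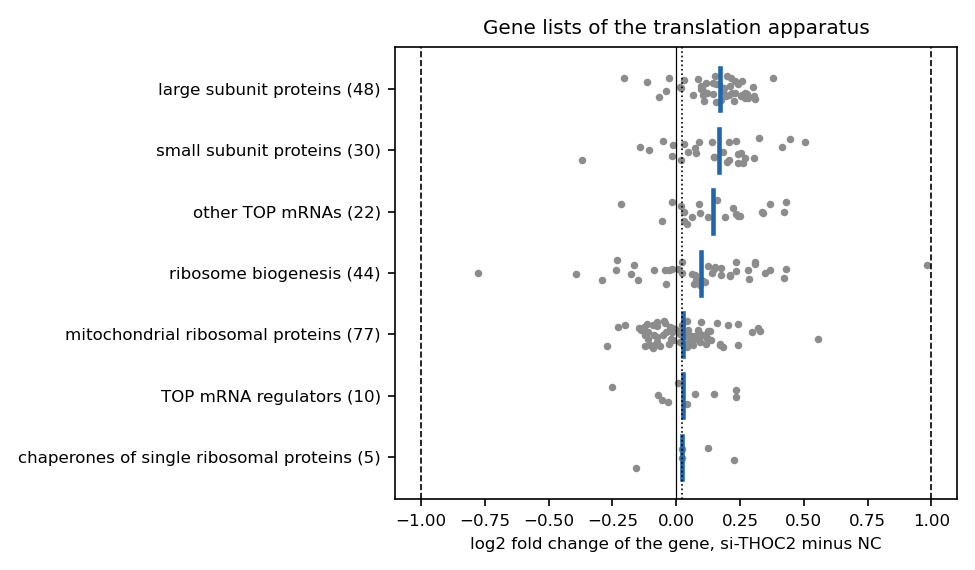
Gene values (grey points, log2 fold change, si-THOC2 minus NC) of 7 gene lists, with the number of compared genes in brackets and the list median as a bar. The dotted line is the median of all compared genes (0.02) and the dashed lines are 2-fold, which no gene of these lists passes, and the ribosome biogenesis genes spread widest, from -0.77 to 0.98.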

How the data were processed

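RNA of 1 NC and 1 si-THOC2 culture of A375 cells was measured on 1 Agilent array each. The authors deposited scanner intensity values per spot, made with Feature Extraction 10.7.1.1 per the submitters' processing notes, and the software's marks for outliers and for signals well above background. The authors also deposited normalized log2 values, used as an alternative, and a table of their own comparison, not used here. Spots of controls and those flagged as outliers were left out, spots of a probe were averaged as log2 processed signal, and each array's 75th percentile was subtracted. Trends over the array that the software had corrected could not be undone. Annotation (hg19) was that of the deposited files.

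Members and gene lists were chosen with earlier results of these data known. Named were the 8 lowest and 8 highest genes, members with known roles, paralogues, and the 3 lowest and 3 highest genes of each other list, apart from some genes that are not reported here. The calculation was tested on simulated data. Python 3.11.15 (numpy 2.4.6, pandas 2.3.3, scipy 1.17.1, statsmodels 0.14.6, matplotlib 3.10.9) and R 4.3.3 (limma 3.58.1, normexp, offset 50) were used. Alternatives were quantile, median and lowess (span 0.3) scaling, normexp, other detection filters, the authors' values, block centring, the brightest probe, a fold of 1.5 and genes in place of probes. The methods' Student's test needs replicates and was not run. The number of arrays limits the precision.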

Additional observations from a re-analysis of the deposited data

How the results depend on the processing

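No paired analysis was possible because each condition had 1 array. Medians and counts by sign depended on the scaling. With quantile normalization the median log2 fold change was 0.0077 for the members (0.17 as reported), 0.0222 for the large and -0.0133 for the small subunit, 0.0184 for the other TOP mRNAs and -0.0452 for the mitochondrial ribosomal proteins, with 42 members above 0 and 33 below. In the authors' normalized values these were 0.0096, 0.0228, -0.0123, 0.0269 and -0.0452, with 41 above and 34 below. Members at exactly 0, such as RPLP2 (0.0000 in both settings), are in neither count. With lowess centring they were 0.0392, 0.0392, 0.0316, 0.0242 and -0.0455, with 26 below 0 and the biogenesis genes at 0.0242, and with normexp 0.0684, 0.0619, 0.0756, 0.0351 and -0.0812, with 24 below 0 and the biogenesis genes at -0.0091. The cause was not tested. Of the 28 members named by rule, 5 changed sign or came to 0 with quantile normalization and 5 in the authors' values, RPLP2 being at 0.0000 in both. With the brightest probe 4 changed sign (RPL7, RPS20, RPS26 and RPS29), with lowess and normexp 2 each, and with block centring 1. A fold of 1.5 gave 1 lower and 2 higher member probes in place of 0. Without a detection filter 1 member probe, below background on both arrays, was lower by 2-fold. Leaving out the patch of the array was chosen after seeing the data. Signal over background limits the 11 member probes with a mean log2 signal of 4 to 8, where repeated spots had SDs of 0.13 to 0.33.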
